A study of Rattus norvegicus with 2 samples.

Results

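The vascular endothelial growth factor (VEGF) system was followed through 9 genes taken by name, 5 ligands and 4 receptors, of the 32623 genes listed for the series. The ligands were Vegfa, Vegfb, Vegfc, Vegfd and Pgf (placental growth factor). The receptors were the tyrosine kinases Flt1 and Kdr and the neuropilins Nrp1 and Nrp2. All 9 were listed. They were taken as a gene family, with earlier results of these data known. The data were single-cell RNA-seq counts of rat carotid artery made on the 10x Genomics platform, with 1 library for the control group and 1 for the case group. Both groups came from the same 2 SD rats, whose age is given as 12 weeks, and each library pooled the arteries of both animals. The control group was the left carotid artery, which had no treatment. The case group was the right carotid artery, taken 28 days after a balloon catheter was inflated and drawn back through it, a model of restenosis after angioplasty. The catheter entered by a cut in the external carotid on that side, which was then ligated. Balloon injury and ligation cannot be told apart. With 1 library per group there was no replicate check, so no test between the groups was made and every interval below covers counting error only. The difference between the arteries cannot be told apart from a difference between the 2 libraries.

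VEGF-A is the main growth factor for endothelial cells (ECs). It is made by the cells around a vessel and binds KDR, which carries most of the signal for growth, survival and permeability, and FLT1, which binds the ligand tightly, signals weakly and also exists as a soluble decoy. VEGF-B and placental growth factor bind FLT1, while VEGF-C and VEGF-D act mainly through FLT4 on lymphatic vessels and can also bind KDR. NRP1 and NRP2 are co-receptors that hold VEGFs next to the kinases and also bind class 3 semaphorins.

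The 250 bases before the transcription start are shown for the 2 kinase receptors, both of which were higher in case ECs, and for Vegfa, the most abundant ligand, whose level differed little between the groups. All 9 genes were matched by symbol to the promoter table of RefSeq (rat build GRCr8), and for Vegfa, which has 2 starts there, the first one on its strand was taken. The windows lie at chr12:12333180-12333429 (Flt1), chr14:32571813-32572062 (Kdr) and chr9:22452604-22452853 (Vegfa), all on the plus strand. Capitals mark matches, on either strand, to the cAMP response element TGACGTCA and to the GC box, whose letters are GGGCGG and on the opposite strand read CCGCCC.
Flt1: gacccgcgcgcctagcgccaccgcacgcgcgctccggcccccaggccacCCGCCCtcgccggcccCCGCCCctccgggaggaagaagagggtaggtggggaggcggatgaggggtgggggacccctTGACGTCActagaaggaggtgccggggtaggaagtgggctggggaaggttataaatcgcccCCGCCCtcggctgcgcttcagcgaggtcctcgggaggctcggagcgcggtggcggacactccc
Kdr: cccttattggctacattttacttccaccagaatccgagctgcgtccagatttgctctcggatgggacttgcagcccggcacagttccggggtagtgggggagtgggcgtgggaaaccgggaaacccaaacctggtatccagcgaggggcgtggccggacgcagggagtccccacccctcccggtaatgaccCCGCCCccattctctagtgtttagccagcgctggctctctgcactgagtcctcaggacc
Vegfa: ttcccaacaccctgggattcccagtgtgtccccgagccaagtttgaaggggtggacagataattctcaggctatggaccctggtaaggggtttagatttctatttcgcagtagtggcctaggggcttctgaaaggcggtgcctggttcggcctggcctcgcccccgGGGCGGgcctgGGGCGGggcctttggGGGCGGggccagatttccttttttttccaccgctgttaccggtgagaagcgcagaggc
Flt1 held 3 GC boxes and 1 cAMP response element, Kdr 1 GC box and Vegfa 3 GC boxes. Of 33469 rat promoters cut to the same window, 30.5% held a GC box and 1.59% a cAMP response element. Among the other members Vegfb held 4 GC boxes, Vegfc and Pgf 2 each, and Vegfd, Nrp1 and Nrp2 none. Neither the ETS sequence CCGGAAGT, found in 3.1% of all promoters, nor ACGTG, a form of the hypoxia response core, found in 16.6%, was in any of the 9 windows. Only these exact letters were searched. Other forms of either site, such as GCGTG in the Kdr window, were not counted. Sites outside these 250 bases, farther upstream or past the start, were not looked for, so a gene may hold either sequence there. GC content ran from 40.8% in Vegfd to 73.2% in Flt1 and Vegfb.

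After filtering, 2742 of 3321 control barcodes and 4930 of 5656 case barcodes were kept, with a median of 8880 and 5156 UMIs (unique molecular identifiers, each standing for 1 captured mRNA molecule) per cell. The libraries were told apart by barcode number only, and 21 barcode sequences occurred in both, 9 of them among the kept cells of both. Cells were classed by the share of their UMIs from marker genes, with none of the 9 genes among the markers, which gave cells like vascular smooth muscle cells (VSMCs), fibroblasts, ECs and macrophages, named so below for short. The control and case libraries held 1556 and 2674 VSMCs, 728 and 1389 fibroblasts, 57 and 255 ECs, and 41 and 101 macrophages. Smaller classes were Schwann cells (19 and 47), lymphatic ECs (1 and 10), cells in several gates (246 and 171) and cells in no gate (94 and 283). Cells within 1.2-fold of a gate's threshold numbered 9 in control and 25 in case for ECs, 128 and 190 for fibroblasts, 85 and 88 for VSMCs, and 7 and 9 for macrophages. Of the control VSMCs, 382 had fewer than 1000 UMIs, against 24 of the case VSMCs. In unsupervised clusters the 2 groups were also unevenly spread: 1 VSMC cluster held 732 control and 150 case cells and another 108 and 1287, 1 fibroblast cluster held 91 and 732, and the 2 endothelial clusters held 54 and 161, and 10 and 155. In sums over a class, fewer cells of one kind within it and less RNA per cell cannot be told apart.

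Levels below are in CPM, which is the UMIs of a gene summed over the cells of a class in 1 library, scaled to 1000000 UMIs of all genes. Marker levels were then read in each class. The endothelial markers are those that set the EC gate. Their high level in ECs and low level in VSMCs and fibroblasts was thus fixed in advance and is no check of the gate. Of 11 endothelial markers 10 were listed (Pecam1 was not) and 9 had UMIs in ECs of both libraries, with Robo4 at 0. Their summed level in ECs was 2960 CPM in control and 3219 in case, against 1.87 and 4.03 in VSMCs and 2.18 and 3.52 in fibroblasts. Markers of other cells were also present in ECs: all 9 VSMC markers, at 1496 CPM in control and 1207 in case, and the 8 fibroblast markers (8 with UMIs in control, 7 in case), at 1235 and 510. Of 4 lymphatic markers, 2 in control and 3 in case had UMIs, summing to 170 and 233 CPM, with Ccl21 at 0 in both and Prox1 at 4.54 and 58.0. Of the 9 macrophage markers 4 and 6 had UMIs in ECs, summing to 34.0 and 32.9 CPM, and the microvascular mural markers summed to 288 and 73.6 CPM. The part of these cells in the EC results below was not tested. Macrophages also held fibroblast markers, at 958 CPM in control and 216 in case, and VSMC markers, at 941 and 604 CPM. The part of such RNA in the macrophage results below was not tested either.

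Brackets after a level hold its exact 95% Poisson interval, and those after a ratio the exact interval from both UMI counts. The tags come from the 3′ end of each molecule, so they are not scaled to gene length and do not tell apart the isoforms of Vegfa or the soluble and membrane forms of Flt1. No UMI at all still allows 3, which is given where it matters.

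Among the ligands, Vegfa was the most abundant and was mainly a fibroblast transcript in both arteries. Fibroblasts held 520 CPM [504, 535] in control and 580 CPM [563, 598] in case, from 4294 and 4456 UMIs. VSMCs held 139 CPM [133, 146] and 120 CPM [114, 125], macrophages 159 CPM [120, 206] and 157 CPM [125, 195], and ECs 18.2 CPM [7.84, 35.8] and 24.2 CPM [16.1, 35]. The order was thus fibroblasts, then macrophages and VSMCs, then ECs, with macrophages 1.14-fold [0.857, 1.49] above VSMCs in control and 1.31-fold [1.04, 1.63] in case, so that in control they did not differ beyond counting error. A single control macrophage held 24 of the 56 Vegfa UMIs of its class. Fibroblasts were 28.6-fold [14.5, 66.3] above ECs in control and 23.9-fold [16.5, 36.1] in case. Schwann cells, with few cells, were at 169 CPM [96.5, 274] and 160 CPM [100, 242].

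Case and control differed little in Vegfa. The log2 ratio of case over control was 0.16 [0.10, 0.22] in fibroblasts, -0.22 [-0.31, -0.12] in VSMCs and -0.02 [-0.52, 0.50] in macrophages. The VSMC ratio was -0.08 relative to the median gene of that class, since the median of all 10265 genes with at least 50 UMIs in VSMCs was itself -0.14. Of all Vegfa UMIs in the library, fibroblasts held 65.3% in control and 63.2% in case, and VSMCs 28.4% and 25.7%. The transcript was unevenly spread over cells: the tenth of fibroblasts richest in it held 39.3% of the class's Vegfa UMIs in control and 41.6% in case, with up to 71 and 44 UMIs in 1 cell. Vegfa made up 92.4% and 91.8% of the ligand UMIs of fibroblasts, 78.2% and 70.3% of those of VSMCs, but only 18.6% and 17.7% of those of ECs. Ungated cells were higher in case, at 202 CPM [161, 250] in control and 359 CPM [323, 399] in case.

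In fibroblasts, VSMCs and macrophages the other ligands were far lower than Vegfa, and each had its own distribution. ECs differed: Vegfa was at 18.2 and 24.2 CPM there, below Vegfc (61.3 and 45.9 CPM) in both libraries and below Pgf (61.5 CPM) in case. Vegfb, a ligand of FLT1, was at 9.05 CPM [7.51, 10.8] in control VSMCs and 12.9 CPM [11.1, 14.8] in case VSMCs, a log2 ratio of 0.51 [0.18, 0.85]. Macrophages held 34.0 CPM [17.6, 59.4] and 22.7 CPM [11.7, 39.7], from 12 UMIs each, and fibroblasts 7.5 CPM [5.75, 9.62] and 6.12 CPM [4.50, 8.14]. ECs had only 2 and 6 Vegfb UMIs. The VSMC value is close to the 1.5-fold line used below and passed it under other scalings (0.64 with TMM factors, which scale libraries by a trimmed mean of gene ratios, and 0.65 relative to the class median).

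Vegfc, the main lymphatic growth factor, was highest in ECs, at 61.3 CPM [40.4, 89.2] in control and 45.9 CPM [34.4, 60.0] in case. VSMCs stood at 13.2 CPM [11.4, 15.3] and 13.8 CPM [12.0, 15.8], 4.63-fold [2.97, 6.96] below ECs in control and 3.32-fold [2.41, 4.51] in case. Fibroblasts held 12.6 CPM [10.3, 15.3] and 18.1 CPM [15.2, 21.4], a log2 ratio of 0.52 [0.15, 0.90]. The EC ratio of -0.42 [-1.11, 0.31] included no difference, and it ranged from -2.49 to 0.68 over the alternative settings.

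Vegfd, the second lymphatic factor, had most of its UMIs in fibroblasts, at 3.87 CPM [2.65, 5.47] (32 UMIs) in control and 7.42 CPM [5.62, 9.62] (57 UMIs) in case. Case was 1.92-fold [1.22, 3.05] higher, a log2 ratio of 0.94 [0.29, 1.61]. VSMCs held 5 and 6 Vegfd UMIs, ECs 1 and 0, and macrophages 0 in both, which in macrophages allows up to 8.51 CPM in control and 5.68 in case. In control the fibroblast level lies under that limit. Fibroblasts were 1.71-fold [0.285, 69.5] above ECs in control, so those 2 classes did not differ there beyond counting error.

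Pgf in ECs had the largest case to control ratio among the ligands with enough UMIs for the counts given below. It had enough only through the case library, so it was bound to be higher there. Its rank among the ligands is therefore no result. Control ECs held 11.3 CPM [3.69, 26.5], from 5 UMIs in 5 cells, and case ECs 61.5 CPM [48.0, 77.5], from 71 UMIs in 31 cells. Case was 5.41-fold [2.21, 17.2] higher, a log2 ratio of 2.44 [1.15, 4.10]. In control, VSMCs (16.2 CPM [14.1, 18.5]) and fibroblasts (18.8 CPM [15.9, 22.0]) overlapped with ECs. In case, ECs were 2.60-fold [1.99, 3.37] above VSMCs (23.6 CPM [21.2, 26.2]) and 3.08-fold [2.29, 4.11] above fibroblasts (19.9 CPM [16.9, 23.3]). VSMCs were also higher in case, by 0.55 on the log2 scale [0.30, 0.80], and 0.69 relative to the class median. That VSMC ratio was 1.27 when each cell was thinned to 2000 UMIs, which leaves out 513 control and 123 case VSMCs. Macrophages had 0 and 5 Pgf UMIs.

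**Figure D1:**
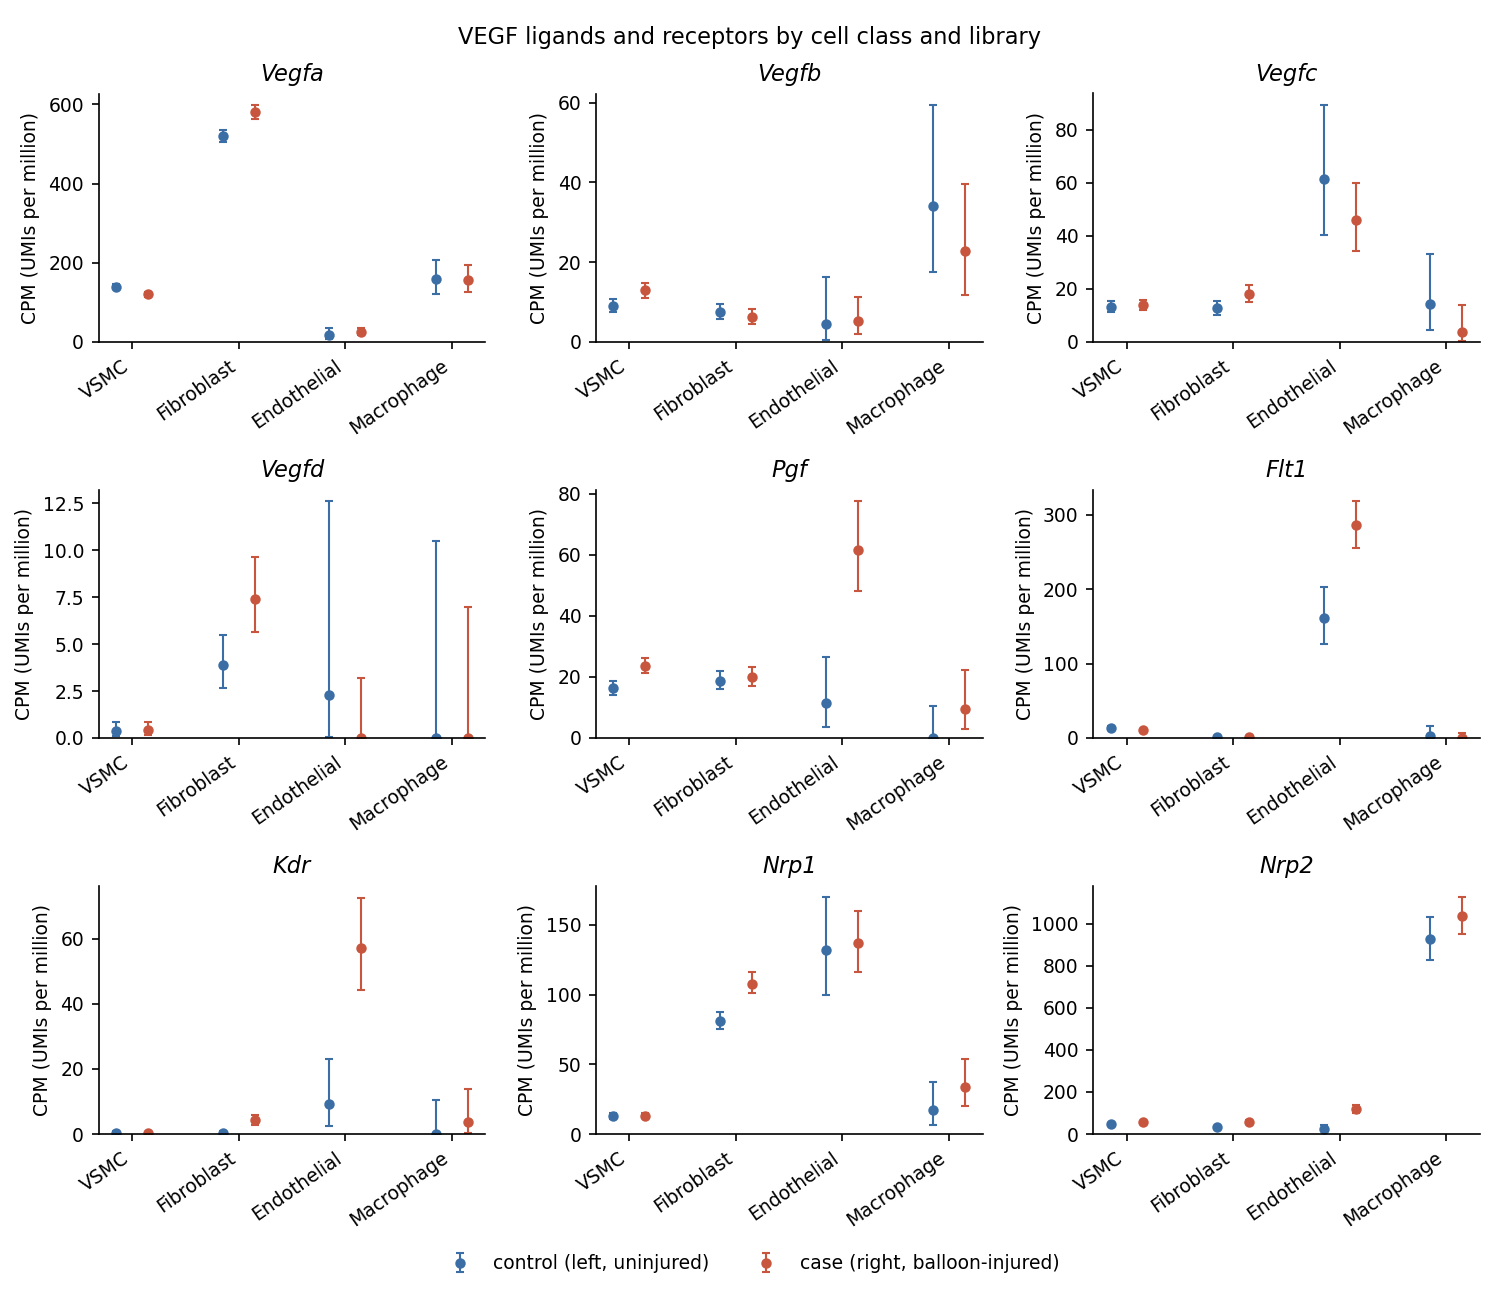
Level of each of the 9 genes in CPM (linear axis from 0) in VSMCs, fibroblasts, endothelial cells and macrophages of the control (blue) and case (red) library; points are class sums and bars exact 95% Poisson intervals. Vegfa peaks in fibroblasts at 520 and 580 CPM, Flt1 and Kdr in endothelial cells, and Nrp2 in macrophages at 927 and 1035 CPM, while Pgf, Kdr and Nrp2 of endothelial cells stand higher in case.

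Of the kinase receptors, Flt1 was by far the more abundant in ECs. Control ECs held 161 CPM [126, 203] and case ECs 286 CPM [256, 318], from 71 and 330 UMIs, a log2 ratio of 0.83 [0.45, 1.22]. With every cell thinned to 2000 UMIs, Flt1 was seen in 23.2% [13.0, 36.4] of 56 control ECs and 30.8% [25, 37.1] of 237 case ECs, intervals that overlap. Without thinning the shares were 43.9% and 51.4%, at median depths of 7013 and 3914 UMIs per EC. The same thinned share in fibroblasts, taken as the background of free RNA, was 0% of 696 control cells, which allows up to 0.431%, and 0.0759% [0.00192, 0.422] of 1317 case cells.

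VSMCs carried a lower but measurable amount of Flt1, at 13.4 CPM [11.5, 15.5] in control and 10.7 CPM [9.13, 12.5] in case, 12.0-fold [9.01, 15.9] and 26.7-fold [22.0, 32.4] below ECs. That was 22.1-fold [9.31, 69.0] and 16.5-fold [6.91, 51.4] above fibroblasts, which held 5 Flt1 UMIs in each library. The VSMC log2 ratio of case over control was -0.32 [-0.64, -0.01] and -0.18 relative to the class median. In VSMCs with no UMI of any endothelial marker the level was 13.4 CPM [11.5, 15.5] in control and 10.1 CPM [8.56, 11.9] in case. Thinned shares of VSMCs with Flt1 were 2.40% [1.56, 3.52] and 2.04% [1.53, 2.66], above the fibroblast share in both libraries. Macrophages had 1 and 0 Flt1 UMIs.

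Kdr, the main signalling receptor, was sparse in the control artery. Control ECs held 9.08 CPM [2.47, 23.2], from 4 UMIs in 3 of 57 cells, and case ECs 57.1 CPM [44.2, 72.7], from 66 UMIs in 45 of 255 cells. Case was 6.29-fold [2.34, 23.8] higher, a log2 ratio of 2.65 [1.23, 4.57]. After thinning, 0 of 56 control ECs had a Kdr UMI, a share whose exact interval reaches up to 6.38%. Among 237 case ECs the share was 9.28% [5.91, 13.7], and these intervals overlap. Thinned shares of fibroblasts were 0.144% and 0.607% and those of VSMCs 0.192% and 0.0392%. Over all alternatives that gave a value, the EC ratio ran from 1.68 to 3.54 and stayed on the higher side of 1.5-fold. VSMCs held 6 and 3 Kdr UMIs and macrophages 0 and 2. Most Kdr UMIs of control lay in cells in no gate, 28 of 41 (68.3%), at 66.6 CPM, with 25 of them in 2 cells. In case 17 of 132 (12.9%) lay there, at 17.6 CPM, with 13 of them in 2 cells. The log2 ratio in these cells was -1.92 [-2.88, -1.0], opposite in sign to that of ECs. It rests on few cells, and its interval counts the UMIs of 1 cell as independent.

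Case fibroblasts also held some Kdr, at 4.17 CPM [2.85, 5.88] from 32 UMIs in 24 of 1389 cells, against 0.363 CPM [0.0749, 1.06] from 3 UMIs in 3 of 728 control cells. The log2 ratio was 3.52 [1.84, 5.87], below the 50 UMIs asked of a gene for the counts that follow. In fibroblasts with no UMI of an endothelial marker the case level was 4.12 CPM [2.80, 5.85], and no such cell held more than 3 Kdr UMIs. None of the 24 case fibroblasts had a UMI of both Kdr and Flt1.

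Within ECs the overlap of the receptors in single cells differed by pair. In case, 34 of the 45 cells with Kdr also had Flt1, which was seen in 131 of all 255 ECs (51.4%). The overlap of Flt1 with Nrp2 was 53 cells (of 70 with Nrp2), and that of Flt1 with Nrp1 45 cells (of 95 with Nrp1). Kdr and Nrp2 shared 26 cells, Kdr and Nrp1 11, and Nrp1 and Nrp2 20. In control, 2 of the 3 ECs with Kdr and 6 of the 7 with Nrp2 had Flt1. Deeper cells show more genes of every kind, and the overlap expected by chance was not worked out, so these counts are a description.

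The co-receptors differed most from each other in where they were found. Nrp1 was shared by ECs and fibroblasts, with 132 CPM [100, 170] in control ECs, 137 CPM [116, 160] in case ECs, 81.2 CPM [75.2, 87.6] in control fibroblasts and 108 CPM [101, 116] in case fibroblasts. ECs were 1.62-fold [1.22, 2.12] above fibroblasts in control and 1.27-fold [1.06, 1.5] in case. VSMCs stood at 12.8 CPM [10.9, 14.9] and 13.0 CPM [11.3, 15.0], and macrophages at 17.0 CPM [6.24, 37.0] and 34.1 CPM [20.2, 53.8], from 6 and 18 UMIs. The log2 ratio was 0.05 [-0.39, 0.51] in ECs and 0.41 [0.26, 0.56] in fibroblasts. In ECs thinned to 2000 UMIs the ratio was 1.03. Nrp1 was then seen in 14.3% [6.38, 26.2] of control and 24.9% [19.5, 30.9] of case ECs, intervals that overlap. That ratio comes from 1 random draw, has no interval and rests on 8 of 56 control ECs with a UMI. The EC ratio stayed short of 1.5-fold in 14 of 15 alternatives.

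By level, Nrp2 was highest in macrophages, at 927 CPM [829, 1033] in control and 1035 CPM [950, 1125] in case, above any other of the 9 genes in these classes. That was 20.2-fold [17.6, 23.1] and 17.9-fold [16.1, 20] above VSMCs. A UMI of Nrp2 was found in 97.6% of control and 92.1% of case macrophages, and in 72.5% [56.1, 85.4] and 76.8% [67.1, 84.9] after thinning, against 8.34% [6.73, 10.2] and 10.4% [9.23, 11.6] of VSMCs. The macrophage log2 ratio was 0.16 [-0.04, 0.36]. Macrophages were few, and held 23.8% of all Nrp2 UMIs in each library. VSMCs held 44.8% in control and 38.0% in case, and fibroblasts 21.1% and 19.8%.

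In ECs, fibroblasts and VSMCs the Nrp2 level was higher in case. In ECs Nrp2 reached 50 UMIs only through the case library, so it was bound to be higher there. ECs held 25 CPM [12.5, 44.7] in control, from 11 UMIs in 7 cells, and 118 CPM [98.8, 139] in case, from 136 UMIs in 70 cells, which is 4.71-fold [2.55, 9.67] or 2.24 [1.35, 3.27] on the log2 scale. Fibroblasts held 35.1 CPM [31.2, 39.4] and 59.1 CPM [53.8, 64.8], a log2 ratio of 0.75 [0.54, 0.97], and VSMCs 46.0 CPM [42.4, 49.8] and 57.7 CPM [53.9, 61.6], a ratio of 0.33 [0.18, 0.48]. In control, ECs overlapped with fibroblasts and lay below VSMCs, with a ratio of 0.543 [0.269, 0.978], and in case they were 2.04-fold [1.69, 2.45] above VSMCs, which overlapped with fibroblasts there (1.03-fold [0.913, 1.15]). Schwann cells went the other way, with 190 CPM [113, 300] from 18 UMIs in control and 58.2 CPM [25.1, 115] from 8 UMIs in case, a log2 ratio of -1.71 [-3.12, -0.43].

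The small classes held few UMIs of the receptors. The 10 case lymphatic ECs held 15 Nrp2 UMIs in 7 cells, 9 Kdr UMIs in 2 cells and 11 Flt1 UMIs in 1 cell, and the single control lymphatic EC had none of the 9 genes. Cells in several gates were higher in case for Flt1 (16.5 and 31.7 CPM), Nrp1 (24.3 and 43.7 CPM), Nrp2 (63.1 and 102 CPM) and Pgf (9.70 and 21.8 CPM), at a median of 1212 UMIs per cell in control and 8301 in case.

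The members were then counted by class. A gene was counted as past the fold where its CPM differed at least 1.5-fold and it had at least 50 UMIs over both libraries in the class. In ECs, 4 of the 6 members with that many UMIs were higher in case (Pgf, Flt1, Kdr and Nrp2), where 20.6% of all 3723 such genes were higher, and none was lower, where 24.0% were. Kdr, Pgf and Nrp2 reached 50 UMIs only through the case library, with 4, 5 and 11 UMIs in control, so they were bound to be higher there and the count of 4 is no result about the set. Flt1, with 71 UMIs in control, was the only one of the 4 that did not depend on this, and its ratio fell to 0.58, just short of 1.5-fold, when cells were thinned to 2000 UMIs. In fibroblasts, 2 of 7 were higher (Vegfd and Nrp2) against 7.12% of 8990 genes, and none lower against 15.3%. In VSMCs, none of 7 was higher against 6.41% of 10265 genes, and none lower against 16.2%. In macrophages, neither of the 2 members with enough UMIs passed, against 15.6% higher and 13.5% lower of 2248 genes.

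These shares of all genes move with the scaling. In ECs, 766 genes were higher and 892 lower, but 1202 and 488 with TMM factors and 862 and 783 relative to the class median. VSMCs had 658 and 1664, 995 and 1115 with TMM factors, and 1045 and 1067 relative to the median. Fibroblasts had 640 and 1371, then 812 and 1114, and 881 and 1053, and macrophages 351 and 303, then 383 and 279, and 335 and 330. The median log2 ratio of all such genes was -0.07 in ECs, -0.09 in fibroblasts, -0.14 in VSMCs and 0.02 in macrophages. With TMM factors the EC ratios were 2.95 for Kdr, 2.73 for Pgf, 2.53 for Nrp2 and 1.12 for Flt1. Those of Kdr, Pgf and Nrp2 were bound to be higher, as given above.

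**Figure D2:**
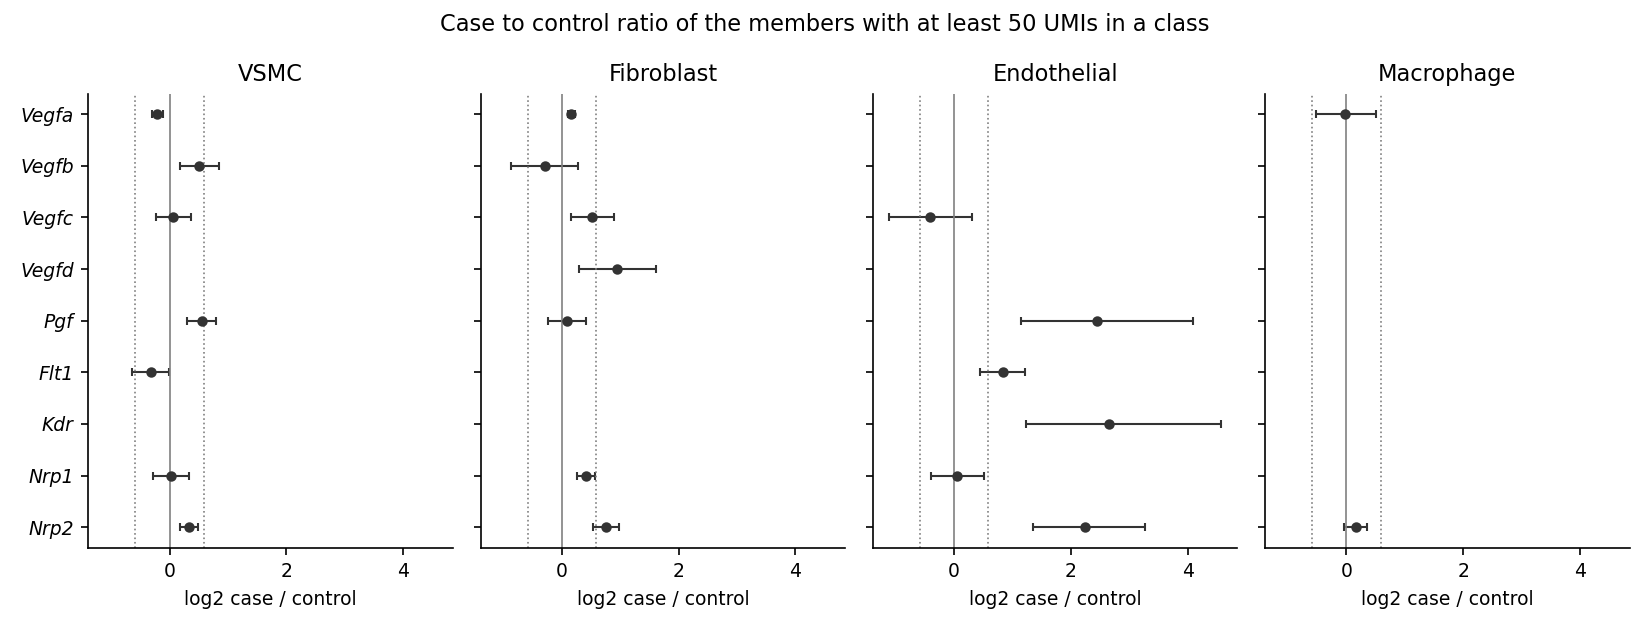
Log2 ratio of case over control CPM for each member with at least 50 UMIs in a class (1 panel per class); points are the ratios, bars exact 95% intervals for counting error, and dotted lines mark 1.5-fold in either direction. Kdr, Pgf, Nrp2 and Flt1 of endothelial cells lie right of the line at 2.65, 2.44, 2.24 and 0.83, and no member of any class lies left of the other line.

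The EC class was split by Plvap and Emcn, which code for a fenestral diaphragm protein and a sialomucin found in capillary and venous endothelium. A UMI of either was found in 12 of 57 control ECs (21.1% [11.4, 33.9]) and in 113 of 255 case ECs (44.3% [38.1, 50.6]). Kdr lay almost wholly in these cells: 3 of its 4 control UMIs and 60 of its 66 case UMIs, so that in case the level with Plvap or Emcn was 122 CPM [93.1, 157] and without them 9.04 CPM [3.32, 19.7], 13.5-fold [5.85, 38.2] apart. In the same case cells Nrp2 was 5.99-fold [3.86, 9.66] higher with than without (226 and 37.7 CPM), Pgf 3.98-fold [2.29, 7.21] (108 and 27.1 CPM) and Flt1 2.03-fold [1.62, 2.54] (403 and 199 CPM). Nrp1 had the opposite order, at 104 CPM with and 161 CPM without, a ratio of 0.644 [0.452, 0.906].

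Within each of these sets the comparison of case with control differed by gene. Flt1 was at 401 CPM [279, 558] in control and 403 CPM [349, 463] in case among cells with Plvap or Emcn, a log2 ratio of 0.01 [-0.52, 0.57], and at 102 CPM [71.4, 141] and 199 CPM [166, 236] among cells without, a ratio of 0.96 [0.42, 1.54]. Nrp2 was higher in case in both, by 1.30 [0.27, 2.55] with (91.7 and 226 CPM) and 2.15 [0.44, 4.52] without (8.49 and 37.7 CPM). Kdr with Plvap or Emcn was at 34.4 CPM [7.09, 100] and 122 CPM, a ratio of 1.83 [0.21, 4.15], and without them rested on 1 and 6 UMIs, a ratio of 1.68 [-1.37, 7.20].

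Pgf was 2.23 [0.31, 5.32] higher with Plvap or Emcn, from 2 and 53 UMIs, and 1.68 [-0.10, 4.08] without, from 3 and 18 UMIs. Vegfc was lower in case with Plvap or Emcn, at 160 CPM [87.7, 269] in control and 28.5 CPM [15.6, 47.8] in case, a ratio of -2.49 [-3.67, -1.32]. Without them Vegfc was at 36.8 CPM [19.6, 62.9] and 58.8 CPM [41.8, 80.3]. That ratio of 0.68 [-0.26, 1.70] had the other sign but included no difference. The 12 control cells with Plvap or Emcn hold 87280 UMIs in all, so their values rest on few molecules.

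**Figure D3:**
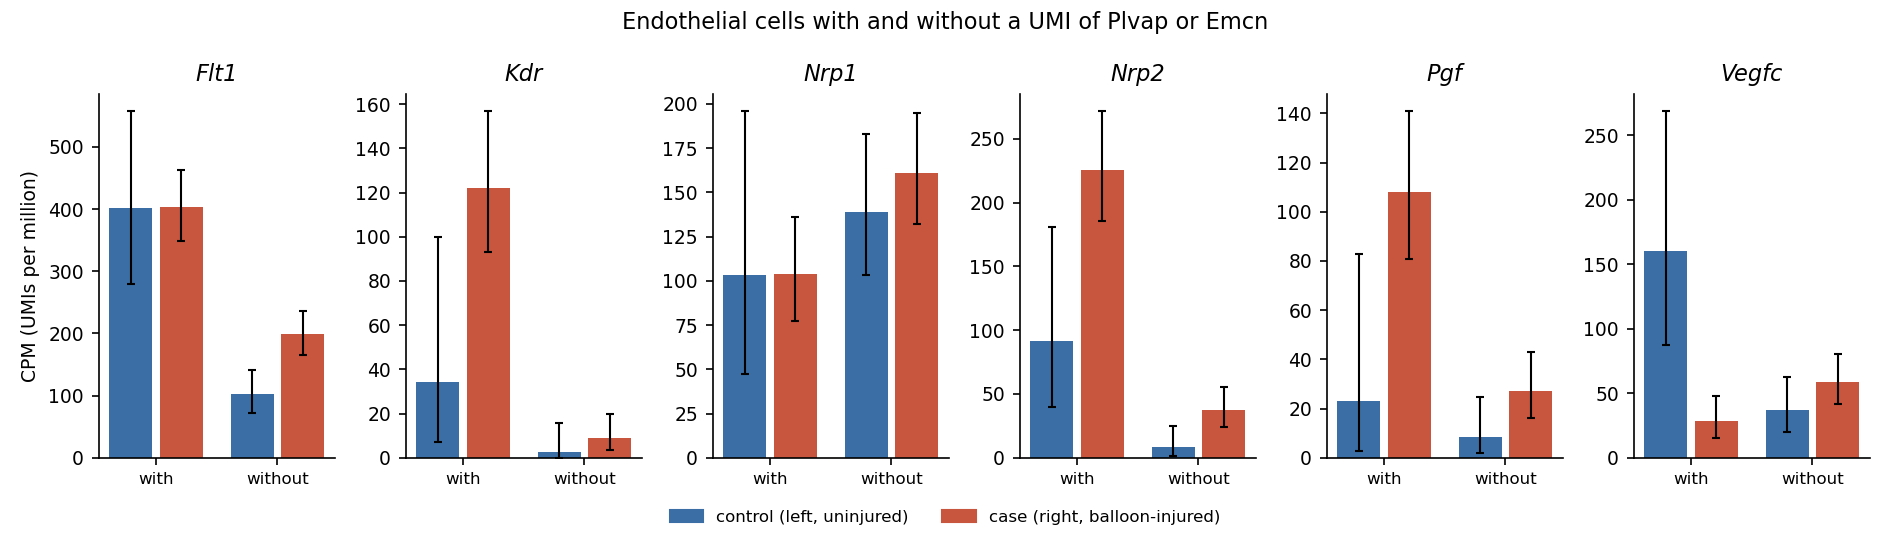
CPM (linear axis from 0) of 6 members in endothelial cells with and without a UMI of Plvap or Emcn, in the control (blue, 12 and 45 cells) and case (red, 113 and 142 cells) library, with exact 95% Poisson intervals. Kdr reaches 122 CPM in case cells with Plvap or Emcn and 9.04 without, and Flt1 is level at 401 and 403 CPM with them. Vegfc is lower in case with them, while without them its log2 ratio of 0.68 [-0.26, 1.70] includes no difference.

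Fibroblasts were split by 3 genes in turn. By Gfpt2, an enzyme of the hexosamine pathway, 20.5% [17.6, 23.6] of control and 23.3% [21.1, 25.6] of case fibroblasts lay at or above the cut. They held more Vegfa, at 679 CPM in control and 829 CPM in case against 461 and 477 CPM below the cut, 1.47-fold [1.38, 1.57] and 1.74-fold [1.64, 1.85] more. Among these cells the case to control log2 ratio of Vegfa was 0.29 [0.19, 0.39], and below the cut 0.05 [-0.03, 0.13]. Pgf had the reverse pattern, with 9.88 and 11.5 CPM against 22.0 and 23.4 CPM below. Nrp1 was lower at or above the cut in both libraries, at 46.7 and 92.6 CPM against 93.9 and 114 CPM, and its ratio there was 0.99 [0.64, 1.34] against 0.28 [0.12, 0.45] below.

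By Pi16, a marker of adventitial fibroblasts, 54.9% [51.2, 58.6] of control but 27.4% [25, 29.8] of case fibroblasts were at or above the cut. Nrp1 and Nrp2 were lower in these cells. Nrp1 stood at 61.4 and 77.5 CPM against 106 and 120 CPM below the cut, and Nrp2 at 24.2 and 45.6 CPM against 48.8 and 64.4 CPM. The Nrp2 ratio was 0.92 [0.51, 1.32] at or above the cut and 0.40 [0.14, 0.67] below it, so that only the former passed 1.5-fold. Vegfd was higher in case on both sides, at 0.80 [-0.33, 1.91] and 0.93 [0.06, 1.89]. None of the Kdr UMIs of case fibroblasts lay in the cells at or above the Pi16 cut, and all 32 lay below it.

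By Postn, which codes for the matrix protein periostin, 2.34% [1.37, 3.71] of control and 13.6% [11.8, 15.5] of case fibroblasts were at or above the cut. In case these cells held 22 of the 57 Vegfd UMIs, at 18.7 CPM against 5.38 CPM below, 3.48-fold [1.95, 6.11] more. Below the Postn cut the case to control ratio of Vegfd was 0.45 [-0.28, 1.19], under 1.5-fold. Pgf was lower in the Postn cells of case, at 7.67 against 22.1 CPM, and Nrp1 higher, at 141 against 102 CPM.

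**Figure D4:**
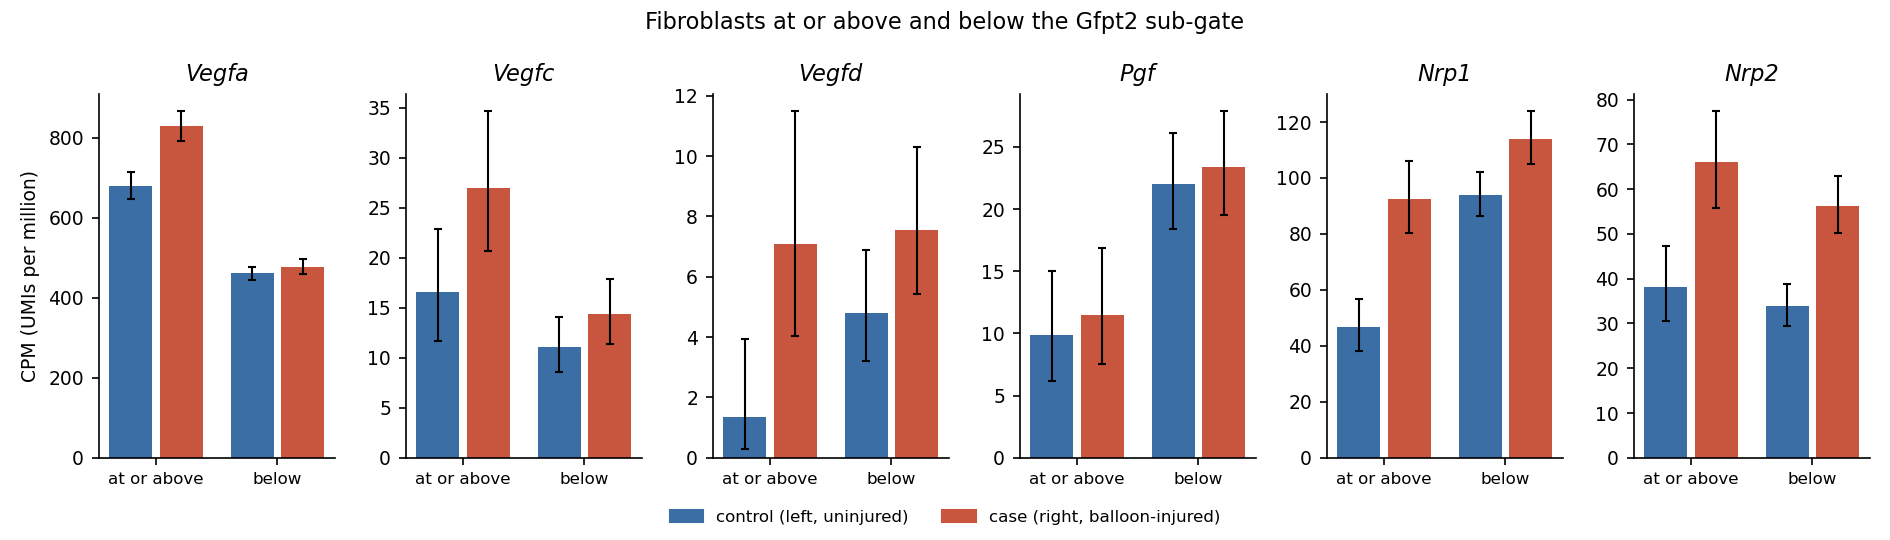
CPM (linear axis from 0) of 6 members in fibroblasts at or above and below the Gfpt2 cut, in the control (blue) and case (red) library, with exact 95% Poisson intervals. Vegfa is highest at or above the cut (679 and 829 CPM), where Pgf is at 9.88 and 11.5 CPM against 22.0 and 23.4 CPM below it.

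VSMCs were split by Spp1 (osteopontin) and Notch1. In control VSMCs at or above the Spp1 cut, Flt1 stood at 20.5 CPM against 11.7 CPM below, 1.76-fold [1.25, 2.44] more, and in case at 8.86 against 11.1 CPM, with a ratio of 0.796 [0.494, 1.23]. Vegfb of these cells was at 3.1 CPM in control and 13.7 CPM in case, from 8 and 37 UMIs, a log2 ratio of 2.14 [1.01, 3.45]. Below the cut Vegfb was at 10.5 and 12.7 CPM, a ratio of 0.28 [-0.08, 0.64], so the control cells at or above the cut stood apart, at 0.296 [0.125, 0.602] of the control level below it. Among VSMCs with a Notch1 UMI, Nrp2 was at 67.6 CPM in case against 53.1 CPM in those without, 1.27-fold [1.11, 1.46] more. In control it was at 49.7 and 43.3 CPM, 1.15-fold [0.977, 1.35], which includes no difference. VSMCs with a Notch1 UMI were also deeper, at a median of 14328 against 4618 UMIs in control and 6056 against 5167.5 in case. Vegfa did not differ by more than its interval across either split in case, at 120 CPM on both sides of the Spp1 cut and 123 and 118 CPM with and without Notch1.

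The rest of the pathway was read from lists named by role, using the same 1.5-fold and 50-UMI rule and the same background shares. Of all such genes, 20.6% were higher and 24.0% lower in ECs, and 7.12% and 15.3% in fibroblasts. The shares were 6.41% and 16.2% in VSMCs and 15.6% and 13.5% in macrophages. Of 10 genes that VEGF is known to induce in ECs, 6 had enough UMIs there, and 4 were higher and 2 lower in case, with a median log2 ratio of 0.78. Esm1 and Apln, with 3 and 2 UMIs in control, had enough only through the case library, so both were bound to be higher and neither the count nor the median is a result about the list. Esm1, a secreted proteoglycan of endothelial tip cells, had 3 UMIs in control (6.81 CPM) and 197 in case (171 CPM), a ratio of 4.65 [3.08, 6.94]. It was seen in 36 of 255 case ECs, 5 of which held 96 of the 197 UMIs. Apln, a peptide hormone of sprouting vessels, had 2 UMIs (4.54 CPM) and 52 (45.0 CPM), a ratio of 3.31 [1.38, 6.39], but 49 of the 52 lay in 5 cells and 33 in 1.

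By UMIs, these 2 genes fell mostly on different sides of the Plvap and Emcn split in case ECs. Cells without Plvap and Emcn held 191 of the 197 Esm1 UMIs, at 8.49 CPM in control and 288 CPM in case, while cells with them held 47 of the 52 Apln UMIs. Kdr had 60 of its 66 UMIs in cells with Plvap or Emcn. The side of Apln rests on few cells, so a likeness of Kdr to Apln or Esm1 was not tested. Nr4a1, an immediate early nuclear receptor, was lower in case ECs, at 599 and 274 CPM, a ratio of -1.13 [-1.37, -0.89]. The other members of the list past the line, named after their values were seen, were Flt1 itself and Rcan1 (0.73 [-0.12, 1.69]) on the higher side and Nrarp (-0.86 [-1.64, -0.07]) on the lower. Under 50 UMIs in ECs were the Notch ligand Dll4, with 2 and 39 UMIs (2.89 [0.94, 5.99]), and the TEK ligand Angpt2, with 1 and 32 (3.61 [1.03, 8.96]). Egr3 and Hlx were also under 50 UMIs there, and their EC values are not given. Dll4 and Angpt2 were picked out after their values were seen. With so few UMIs in control they are no result about the list. In the other classes the list had 0 higher and 0 lower of 5 in fibroblasts (median 0.27), 1 and 1 of 8 in VSMCs (median 0.01) and 0 and 1 of 2 in macrophages (median -1.32). The VSMC genes past the line were Egr3, at 15.3 and 24.1 CPM, and Dll4, at 3.67 and 2.38 CPM, and the macrophage gene was Nr4a1, at 119 and 26.5 CPM.

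Of 13 other receptors and partners, 2 of 6 were higher in ECs (median -0.07), 1 of 7 in fibroblasts (0.14), none of 8 in VSMCs (-0.10) and 1 of 3 in macrophages (0.19), with none lower. Cdh5, the cadherin of endothelial junctions that associates with KDR, was at 352 CPM in control and 723 CPM in case ECs, a ratio of 1.04 [0.79, 1.30], but it is also a marker in the endothelial gate. The heparan sulfate proteoglycan Sdc4 was at 49.9 and 88.3 CPM there, a ratio of 0.82 [0.15, 1.56], with -0.42 [-1.87, 1.34] among cells with Plvap or Emcn and 1.34 [0.58, 2.19] among those without, and its relative Sdc1 was higher in case in fibroblasts (1.11 [0.39, 1.86]) and macrophages (0.78 [0.06, 1.54]). The lymphatic receptor Flt4 had only 5 and 20 UMIs in ECs.

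Class 3 semaphorins, the other ligands of the neuropilins, had 4 of 7 genes with enough UMIs in VSMCs (0 past the line, median -0.30) and in fibroblasts (1 lower, median -0.30), and 1 in ECs. Sema3d in fibroblasts was at 81.1 and 51.7 CPM, a ratio of -0.65 [-0.83, -0.47], and Sema3f in ECs at 113 and 59.7 CPM, a ratio of -0.93 [-1.47, -0.37]. Of the proteins that process VEGF-C and VEGF-D, 1 of 5 was lower in ECs (Pcsk7, -0.59 [-1.45, 0.30], list median -0.14) and 1 of 6 in VSMCs (Ctsd, a lysosomal protease, at 213 and 141 CPM, list median -0.13). None passed of 6 in fibroblasts (median -0.29) or of 1 in macrophages (-0.01).

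Among secreted proteins that bind VEGF, thrombospondins were higher in case fibroblasts. Thbs2 was at 41.4 CPM in control and 169 CPM in case, a ratio of 2.03 [1.85, 2.20], and Thbs1 at 12.7 and 37.6 CPM, a ratio of 1.57 [1.24, 1.90]. Sparc, a collagen-binding matricellular protein, was lower in case in every main class. It was at 10115 and 5723 CPM in fibroblasts (-0.82 [-0.84, -0.81]) and 5178 and 3095 in VSMCs (-0.74). ECs held 3605 and 1611 CPM (-1.16) and macrophages 303 and 140 (-1.12). Fibroblast and VSMC markers in macrophages were also lower in case, and the part of such RNA in their Sparc values was not tested. In ECs the metalloprotease Adamts1 was higher, at 88.5 and 176 CPM, and so was Ccn2, a connective tissue growth factor, at 636 and 1216 CPM. Among cells with Plvap or Emcn the Ccn2 ratio was 1.30 [0.94, 1.69], and among those without 0.28 [0.04, 0.52], short of the line. In all, 2 of 4 were higher and 1 lower in ECs (median 0.62), 2 of 5 and 1 in fibroblasts (0.42), 0 of 5 and 1 in VSMCs (-0.04) and 0 of 2 and 2 in macrophages (-1.37).

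The oxygen-sensing genes upstream of Vegfa were mixed. Hif1a, an oxygen-regulated subunit of the hypoxia factor, was higher in case in ECs (166 and 365 CPM, 1.14 [0.78, 1.52]), fibroblasts (133 and 237 CPM, 0.84 [0.73, 0.95]) and VSMCs (58.8 and 97.3 CPM, 0.73 [0.60, 0.85]), and was at 204 and 219 CPM in macrophages (0.10 [-0.33, 0.55]). The EC ratio of Hif1a was 1.26 [0.62, 1.97] with Plvap or Emcn and 0.51 [0.04, 1.00] without, short of the line. Its relative Epas1 was higher in fibroblasts (60.6 and 123 CPM, 1.02 [0.86, 1.17]) and VSMCs (51.2 and 78.4 CPM, 0.61 [0.48, 0.75]). The prolyl hydroxylases, which mark these factors for breakdown, were lower where they passed: Egln1 in VSMCs (-1.27 [-1.92, -0.64]) and Egln2 in fibroblasts (-0.86 [-1.14, -0.59]) and macrophages (-0.80 [-1.63, 0.02]). Over the 8 regulators, 1 of 3 was higher and 0 lower in ECs (median 0.14), 2 and 2 of 7 in fibroblasts (-0.28), 2 and 1 of 8 in VSMCs (-0.16) and 0 and 1 of 2 in macrophages (-0.35).

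Hypoxia-responsive genes did not share 1 direction. Of 10, 3 were higher and 1 lower of 8 in ECs (median 0.15), 2 and 0 of 9 in fibroblasts (-0.24), 0 and 1 of 9 in VSMCs (-0.25) and 2 and 1 of 6 in macrophages (0.42). Adm, the vasodilator adrenomedullin, was at 275 and 636 CPM in ECs (1.21 [0.93, 1.5]) and at 128 and 373 CPM in macrophages (1.55 [1.07, 2.05]). Within ECs with Plvap or Emcn the Adm ratio was 0.31 [-0.03, 0.67], and within those without 1.18 [0.69, 1.71]. The stress-response gene Ndrg1 was higher in the same classes, at 184 and 420 CPM and at 698 and 1192 CPM, while Ankrd37 was lower in ECs (141 and 45.9 CPM) and VSMCs (87.9 and 48.4 CPM). In fibroblasts the glucose transporter Slc2a1 (0.64 [0.43, 0.85]) and the glycolytic regulator Pfkfb3 (0.62 [0.38, 0.86]) were higher, and Ldha, lactate dehydrogenase, was at 450 and 308 CPM, short of the line.

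Signalling genes below the receptors were mostly within the line, as were most of all genes in each class. Of 28, 1 was higher and 3 lower of 16 in ECs (median -0.21), 1 and 3 of 25 in fibroblasts (-0.24), 0 and 2 of 26 in VSMCs (-0.14) and 1 and 4 of 13 in macrophages (-0.41). In ECs, Nos3, the endothelial nitric oxide synthase, was at 202 CPM in control and 94.3 CPM in case (-1.10 [-1.52, -0.68]), Hspb1, a small heat shock protein phosphorylated after VEGF, at 4969 and 2986 CPM (-0.73 [-0.81, -0.66]), and Mapkapk2, the kinase of Hspb1, at 27.2 and 75.3 CPM (1.47 [0.59, 2.47]). Mapkapk2 had 3 control and 49 case UMIs in ECs with Plvap or Emcn, and 9 and 38 in those without. It thus had enough UMIs only through the case library and was bound to be higher there. The count of 1 higher in ECs is therefore no result about the list. Hspb1 was also lower in case macrophages, at 791 and 210 CPM (-1.91 [-2.24, -1.59]). The part of fibroblast and VSMC RNA in this macrophage difference was not tested. In fibroblasts the kinase Src was higher, at 16.2 and 27.9 CPM.

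The angiopoietin system, which acts beside VEGF on vessel stability, had 2 of 5 genes with enough UMIs in each of ECs (0 higher, 1 lower, median -0.34), fibroblasts (1 and 0, median 0.62) and VSMCs (0 and 0, median -0.26), and none in macrophages. The receptor Tek was at 454 CPM in control and 291 CPM in case ECs (-0.64 [-0.90, -0.38]), with -1.44 [-2.11, -0.75] among cells with Plvap or Emcn and -0.22 [-0.50, 0.06] among those without. Its partner Tie1 was at 336 and 329 CPM (-0.03 [-0.31, 0.25]). Among the other EC ratios past the line, Cdh5 was at 0.30 with Plvap or Emcn, Ndrg1 at 0.49 and Hspb1 at -0.39 without them, and Pcsk7 at -0.49 with and -0.52 without, all short of it, while Sema3f turned to 0.97 with them, from 1 and 11 UMIs. The ligand Angpt1 was at 4.96 and 10.8 CPM in fibroblasts (1.12 [0.57, 1.70]).

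**Figure D5:**
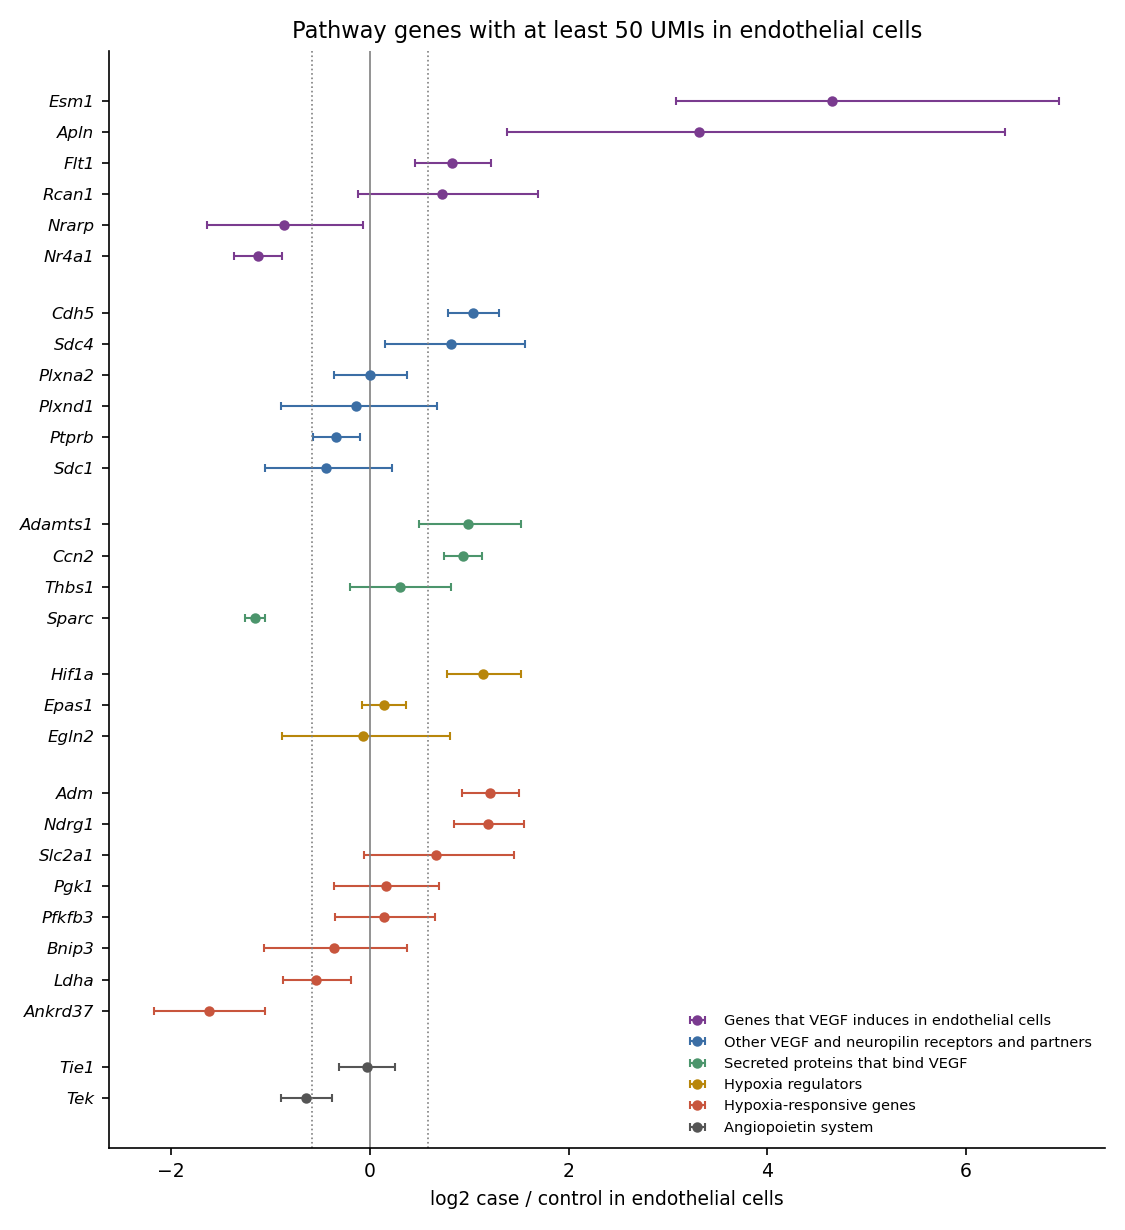
Log2 ratio of case over control CPM in endothelial cells for pathway genes with at least 50 UMIs, coloured by list; points are ratios, bars exact 95% intervals for counting error, and dotted lines 1.5-fold in either direction. Esm1 (4.65) and Apln (3.31) lie farthest right, Adm, Ndrg1 and Hif1a between 1.14 and 1.21, and Ankrd37 (-1.62), Sparc (-1.16) and Nr4a1 (-1.13) farthest left.

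For the 7 members that reached 50 CPM in a pool, the genes with the most similar levels were sought over 9 pools of a class in a library, among 4832 genes, by Pearson's r of log2(CPM + 10). Flt1 was closest to Clec14a (r = 0.988), Atp2a3 and Erg, of which Clec14a and Erg code for an endothelial lectin and an endothelial transcription factor. Kdr was closest to Sele (0.974), the endothelial selectin, AABR07005821.1 and Lrat, and Nrp2 to Peli1 (0.993), Slc2a1 and Prdm1. Nrp1 was closest to Zfp521 (0.971), Efemp1 and Cd34, Vegfa to Fmr1 (0.943), Axl and Bcat1, Pgf to Stc1 (0.95), Nbn and Foxo1, and Vegfc to Cgnl1 (0.953) and Fam204a. The pools share 2 libraries, so r is a description. With a pseudocount of 1 in place of 10, all 3 genes named for Nrp1 were named again, but none of those for Kdr or Vegfc.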

How the data were processed

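The deposited matrix holds raw UMI counts per gene and barcode, which the authors made with Cell Ranger 3.1.0 (named in the file header) on rat build Rnor_6.0, and Seurat is named in the submitters' processing notes. The counts were used as deposited. Barcodes were assigned to the 2 libraries by the barcode numbers the study's methods state. Kept cells had at most 20% mitochondrial UMIs, lay within 2 SD of the mean log10 UMIs and genes, and within 3 robust SD of a linear fit of genes on UMIs. The libraries totalled 24968329 (control) and 28232614 (case) UMIs.

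Gates, in marker UMIs per 10000, were 50 for VSMCs, 120 for fibroblasts, 5 for ECs, 20 for macrophages, 15 for Schwann cells and 15 for lymphatic ECs, and the last 4 also asked for 2 markers. Sub-gates were 30 for Gfpt2, 10 for Pi16, 3 for Postn and 5 for Spp1, and any UMI for Notch1 and for Plvap or Emcn. These thresholds were set after seeing the marker shares, without the 9 genes. Doublets were left in: Scrublet, through scanpy, called 6 of 2742 and 0 of 4930 cells, too few to have worked. Thinning drew 2000 UMIs per cell (seed 1) and left out shallower cells.

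With 1 library per group no test was run and no p-value is given. Intervals are exact: Poisson for levels, conditional binomial for ratios and Clopper-Pearson for shares. They cover counting error only. A count of 0 was taken to allow 3. The named genes were the 9 members, at most 3 per role list with the largest log2 ratio in size among genes with at least 50 UMIs, and the 3 most alike genes for each member with at least 50 CPM in a pool of at least 100000 UMIs, of which 1 for Vegfc is not reported here. The members and lists were chosen with earlier results of these data known. Of the role lists, Ccbe1, Ctgf and Hspg2 were not listed in the files. The alternatives tried were other scalings, filters, gates, classes from Leiden clusters, doublet removal, thinning, fold and UMI minimums. Ratios and intervals were tested on simulated class sums drawn from a Poisson distribution. These leave out the uneven spread of UMIs over cells, so the test cannot show how well the intervals hold for the data. The software was scanpy 1.11.5 and leidenalg 0.10.2 for clusters, matplotlib 3.10.9 for plots, and scipy 1.17.1, numpy 2.4.6 and pandas 2.3.3 under Python 3.11.15 for the rest.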

Additional observations from a re-analysis of the deposited data

How the results depend on the processing

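No paired analysis was possible because each group is 1 library. Of the 22 member ratios with enough UMIs, none that was past 1.5-fold as reported changed direction under the alternatives run. Vegfc in ECs, short of 1.5-fold as reported, lay past it on both sides, as given below. Kdr, Pgf and Nrp2 in ECs stayed at least 1.5-fold higher in case under every alternative that gave a value, with log2 ratios of 1.68 to 3.54, 1.68 to 2.99 and 1.30 to 2.74. They had enough UMIs only through the case library and were bound to be higher there, so these ranges are no support for a difference. Vegfd in fibroblasts ran from 0.65 to 1.10 over 14 alternatives, but was at 0.45 in the fibroblasts below the Postn cut, short of 1.5-fold. Flt1 in ECs ran from 0.01 to 1.12 and fell short of 1.5-fold when cells were thinned to 2000 UMIs (0.58) and among cells with Plvap or Emcn (0.01). Nrp2 in fibroblasts ran from 0.40 to 0.87 and fell short below the Pi16 cut (0.40). Nrp1 in ECs passed 1.5-fold only when thinned (1.03). Vegfc in ECs, short of 1.5-fold as reported, was past it at -1.76 when thinned, at -2.49 with Plvap or Emcn and at 0.68 without them, and Vegfc in fibroblasts (0.16 to 0.67) passed it under 4 of 14 alternatives.

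The number of members at least 1.5-fold higher in VSMCs, 0 as reported, was 1 with at most 10% mitochondrial UMIs, 2 with TMM factors, 2 relative to the class median, 2 by the mean over cells and 1 without the top 5% of doublet scores. These were Pgf (0.49 to 1.27) and Vegfb (0.18 to 1.04). Thinning to 2000 UMIs, for which the number was not counted, also took Pgf in VSMCs past the line (1.27) and put Vegfb at 0.18. The number higher in fibroblasts was 0 at a fold of 2 against 2. The mean over cells gave 1 member lower in ECs (Vegfc, -0.83) and 1 lower in macrophages (Vegfa, -0.64) against 0, and a minimum of 20 UMIs gave 1 higher in macrophages against 0 (Nrp1, 6 and 18 UMIs). The cause was not tested.

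Counts over all genes that moved by more than 1.5 times were as follows. In VSMCs, 995 were higher with TMM factors and 1045 relative to the median, 149 at a fold of 2, and 1067 were lower relative to the median and 354 at a fold of 2. In fibroblasts, 1028 were higher with a minimum of 20 UMIs and 188 at a fold of 2, and 330 were lower at a fold of 2. In ECs, 1202 were higher with TMM factors, 1247 at 20 UMIs and 364 at a fold of 2, and 488, 1783 and 356 were lower. In macrophages, 859 were higher at 20 UMIs and 128 at a fold of 2, and 623 and 87 were lower. Of 72 shares of cells, 32 stayed within their interval when thinned to 1000 UMIs and 29 without thinning. The doublet score, the left-out cell with most UMIs and the subsets by Plvap, Emcn and Pi16 were chosen after seeing the data. The 57 control ECs set the precision of every EC ratio.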

Other observations

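Kdr was also found outside the gates, in cells picked out after their values were seen. Of the 377 cells in no gate, 9 had a Kdr UMI, with 45 UMIs in all, 28 in control and 17 in case. Of these UMIs, 37 lay in 3 cells, 2 of control and 1 of case, with 12 or 13 each. All 3 cells held Slpi, a secreted protease inhibitor, at 155, 91 and 71 UMIs, and Clec9a at 2, 2 and 6 UMIs. They held no UMI of the endothelial gene Cdh5, of the other VEGF receptors Flt1, Flt4 and Nrp1, or of the mesothelial genes Msln, Upk3b, Krt19 and Wt1. In the same class 1 case cell held 20 of the 59 Pgf UMIs.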
